A study of Mus musculus with 23 samples.

Results

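Sites in the 5′ untranslated regions (5′ UTRs) of messenger RNAs were taken from 6 lists of sites called on CTCF crosslinking libraries, 4 made with UV and 2 without. A site was a member when it lay, on its own strand, in the 5′ UTR of a protein-coding GENCODE transcript and in no coding exon or 3′ UTR of such a transcript. Of 1346716 sites on chromosomes 1 to 19, X and Y, 97305 met this rule. They fell on 73929 different nucleotides of 9209 genes, out of 20916 protein-coding genes with a 5′ UTR.

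The data are iCLIP2 maps of nuclear RNA held by CTCF, a zinc finger protein that anchors chromatin loops. In this assay UV light links protein to RNA, the protein is pulled down (here by its Flag tag) and reverse transcription stops beside the link. Mouse embryonic stem cells of the E14 line (ESCs) were used, together with neural progenitor cells (NPCs) obtained from them by 2 days of differentiation. In every group, endogenous CTCF carried a mini-auxin degron with eGFP, an OsTir1 variant stood at Rosa26, and a doxycycline-inducible Flag-Halo CTCF stood at Tigre. All groups received 1 µM 5-Ph-IAA to degrade the endogenous protein and 1 µg/mL doxycycline to induce the rescue, for 24 hours. The rescue was either intact CTCF (wild type, WT) or CTCF without part of its first zinc finger (ΔZF1), and each rescue line was 1 clone, so that a difference between the rescue proteins and one between the lines cannot be told apart. The UV dose was 400 mJ/cm2 (254 nm), and controls without UV (noXL) were made from the WT rescue line only. There were 23 libraries, 3 for NPC WT and 4 for each other group, and the libraries of a group were merged before sites were called. Each group is therefore 1 list, no value has a replicate spread, and no test between groups was possible. Ranges after a value are 95% intervals and cover counting error only, with sites taken as independent. Many sites nevertheless lay directly beside another site of their list. For WT this held for 29.0% of 5′ UTR sites in ESCs and 24.3% in NPCs. The shares were 16.9% and 4.41% for ΔZF1, and 7.60% and 4.24% for noXL. The intervals may therefore be too narrow. How far such neighbouring sites raise the WT counts over the others was not tested. More RNA of a gene, more cells carrying it, deeper sequencing and more contact with CTCF can all lengthen a list and cannot be told apart from site counts.

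The cell labels were compared with marker genes by the sites in their whole bodies. The ESC markers Nanog, Klf4, Esrrb, Tfcp2l1 and Zfp42 together held 1118, 542 and 290 sites in ESC WT, ESC ΔZF1 and ESC noXL, against 30, 17 and 17 in the matching NPC lists. The NPC markers Nes, Sox1, Pax6, Hes5 and Zic1 together held 28, 32 and 17 sites in NPC WT, NPC ΔZF1 and NPC noXL and at most 2 in any ESC list. Only 1 of these 5 NPC markers had any site in NPC WT and in NPC ΔZF1, and 3 had one in NPC noXL, so most defining markers of the labelled cell type were absent from the NPC lists made with UV.

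A 5′ UTR runs from the capped first nucleotide of a messenger RNA to its start codon. The small ribosomal subunit is loaded at the cap and scans along it, and upstream start codons, structure and pyrimidine-rich tracts along the way set how much protein is made. Messenger RNAs of ribosomal proteins and translation elongation factors are known for a 5′ terminal oligopyrimidine tract, which directly follows the cap and ties their translation to growth signals.

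Nucleotide windows are given around some of the highest-scored sites of the lists, among them some whose scores differed widely between the lists. They were chosen after the scores were seen. Each window holds 10 nt on either side of the site, in RNA letters from 5′ to 3′, read from GRCm38 (mm10), and the capital letter marks the site itself. The first 5 belong to genes of the ribosome, its assembly or elongation, and lie 46 to 129 nt from the annotated transcription start. A run of pyrimidines stands at or just after the site in each:
Rps20, chr4:3835591-3835611, minus strand: guccggccccUccuuucugag
Rpl13, chr8:123102402-123102422, plus strand: gcggugcccgGuccuuuccgc
Rps2, chr17:24720098-24720118, plus strand: cggcgccuccCucuucuucuu
Npm1, chr11:33163068-33163088, minus strand: cccgcguccuUuccuuggcgu
Eef1a1, chr9:78481662-78481682, minus strand: ccuuggacguUcuuuuucgca
The next 3 are a stem cell gene, an imprinted gene and a gene whose site was strong only without UV in NPCs, and none holds such a run after the site:
Dppa5a, chr9:78368146-78368166, minus strand: gagcugugggCcgugcguggu
Peg10, chr6:4747355-4747375, plus strand: cggacucccgAuacacgcguu
Stag3, chr5:138280547-138280567, plus strand: ggaagaagagCagcugcggcg
The last is from Ccnb1ip1, at a place where the ribozyme gene Rpph1 lies on the same strand:
Ccnb1ip1, chr14:50807601-50807621, minus strand: uugggcagacUgggcaggaga

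The first comparison asked how many 5′ UTR sites each list held. ESC WT held 33873 5′ UTR sites, ESC ΔZF1 19016 and ESC noXL 9858, while NPC WT held 20202, NPC ΔZF1 8180 and NPC noXL 6176. As a share of all sites this came to 7.51% of the WT list (7.43 to 7.59), 8.21% of the ΔZF1 list (8.10 to 8.32) and 6.20% of the noXL list (6.08 to 6.32) in ESCs. In NPCs it was 8.44% of the WT list (8.33 to 8.56), 5.16% of the ΔZF1 list (5.05 to 5.27) and 5.76% of the noXL list (5.62 to 5.90). NPC ΔZF1 thus had the lowest share of the 6 lists, below even NPC noXL, which comes from the WT rescue line. ESC ΔZF1, by contrast, had a higher share than ESC WT. Per kilobase of sequence the rule allows, 5′ UTRs carried 4.79 sites in ESC WT, against 4.31 for coding exons and 2.13 for 3′ UTRs. In NPC ΔZF1 coding exons stood above 5′ UTRs, at 1.46 against 1.16 sites per kilobase, and so they did by less in ESC noXL (1.41 against 1.39) and NPC noXL (0.895 against 0.873).

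The WT to ΔZF1 ratio of 5′ UTR sites was 1.78 in ESCs (1.75 to 1.81) and 2.47 in NPCs (2.41 to 2.53). In ESCs the coding exon ratio was 1.88 and the 3′ UTR ratio 2.13, so 5′ UTRs had the lowest of the 3 ratios. The order was opposite in NPCs, where coding exons gave 1.89 and 3′ UTRs 1.60. Over all sites of the lists the ratio was 1.95 in ESCs and 1.51 in NPCs. Relative to the controls without UV, ESC WT held 3.44 times as many 5′ UTR sites (3.36 to 3.51) and NPC WT 3.27 times as many (3.18 to 3.37). For ΔZF1 the ratio to noXL was 1.93 in ESCs (1.88 to 1.98) but 1.32 in NPCs (1.28 to 1.37), where coding exons and 3′ UTRs of the same list gave 1.63 and 1.59. NPC ΔZF1 was therefore closer to NPC noXL, a list of the WT rescue line, in 5′ UTRs than in the rest of the messenger RNA.

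Chromosome 11 had the highest WT to ΔZF1 ratio of 5′ UTR sites among the 20 chromosomes with a ratio, 2.08 in ESCs against 1.64 to 1.86 on the other 19 and 2.99 in NPCs against 2.14 to 2.64. Its ratio of WT to noXL, both from the WT line, was 3.66 in ESCs and 3.53 in NPCs, beside 2.89 to 3.70 and 2.84 to 3.50 elsewhere. Without chromosome 11 the ratios of WT to ΔZF1 were 1.76 and 2.43.

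The second comparison asked where in the 5′ UTR the sites lay. Most were in the first exon (85.8% to 91.8% over the 6 lists), and their median distance from the transcription start, counted along the spliced transcript from 1 at its first nucleotide, was 72, 69 and 71 nt in ESC WT, ESC ΔZF1 and ESC noXL and 86, 117 and 85 nt in NPC WT, NPC ΔZF1 and NPC noXL. In ESCs 40.5% of WT sites (40.0 to 41.0), 41.6% of ΔZF1 sites (40.9 to 42.3) and 40.8% of noXL sites (39.8 to 41.7) lay within 50 nt of the start. In NPCs 36.4% of WT sites (35.7 to 37.0), 27.0% of ΔZF1 sites (26.0 to 28.0) and 37.0% of noXL sites (35.8 to 38.2) lay there. An even spread over the same 5′ UTRs would have placed 26.2% to 32.0% there, and 5 lists stood at 1.19 to 1.31 times that share. NPC ΔZF1 stood at 1.03 times, close to an even spread. Sites on uridines were also set against an even spread over uridines. They stood at 1.07, 1.19 and 1.29 times that spread in ESC WT, ESC ΔZF1 and ESC noXL. In NPC WT, NPC ΔZF1 and NPC noXL they stood at 0.968, 0.872 and 1.26 times. For uridines the list without UV thus stood highest in each cell type.

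WT exceeded ΔZF1 by 9.38 percentage points within 50 nt of the start in NPCs (8.21 to 10.5) and was lower by 1.10 points in ESCs, a difference of -1.10 (-1.97 to -0.22). The ESC interval included 0 without UV sites near a noXL site (-0.48, -1.48 to 0.52). It also did so with the smallest distance over transcripts (-0.85, -1.74 to 0.04) and with a window of 20 nt (-0.65, -1.35 to 0.05). For uridine sites the ESC difference was larger, at -4.03 (-5.50 to -2.58). With a score of at least 3.02, the median over all lists, it was -1.58 (-2.70 to -0.46). The WT and noXL lists differed by -0.26 points in ESCs (-1.37 to 0.84) and -0.60 points in NPCs (-1.98 to 0.77), intervals that include 0. For sites on uridines alone, WT was lower than noXL by a difference of -10.7 points in ESCs (-12.9 to -8.51) and -9.25 in NPCs (-11.9 to -6.65). The departure of NPC ΔZF1 was graded along the 5′ UTR. The NPC ratio of WT to ΔZF1 sites fell from 3.57 at 1 to 10 nt (3.24 to 3.94) through 3.25 at 11 to 50 nt, 2.45 at 51 to 100 nt and 2.13 in the next 100 nt, to 2.00 beyond 200 nt (1.91 to 2.10). In ESCs the same ratio stayed between 1.73 and 1.86. Up to 50 nt from the start, NPC ΔZF1 had no more sites than NPC noXL over all bases, with ratios of 0.893 at 1 to 10 nt (0.793 to 1.01) and 0.992 at 11 to 50 nt (0.927 to 1.06), and beyond 200 nt it had 1.61 times as many (1.51 to 1.71). For uridine sites the ratio was 1.06 at 1 to 10 nt (0.836 to 1.35) and 1.32 at 11 to 50 nt (1.16 to 1.51). ESC ΔZF1 held 1.87 to 1.99 times as many sites as ESC noXL in each of the same 5 distance classes.

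**Figure D1:**
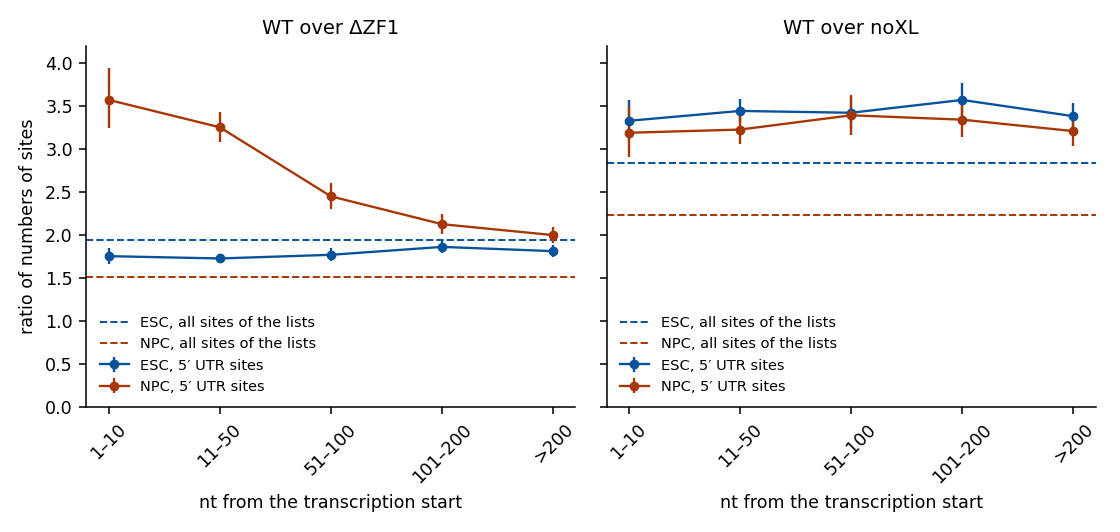
Ratio of the number of 5′ UTR sites in WT to that in ΔZF1 (left) and in noXL (right), by distance from the transcription start in nt, for ESCs and NPCs. Bars are 95% intervals for counting error and dashed lines give the ratio over all sites of the lists; the NPC ratio of WT to ΔZF1 falls from 3.57 to 2.00 while the other 3 curves stay nearly level.

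Around the annotated start itself, the sites of all classes were counted within 50 nt upstream and 100 nt downstream of 20904 transcription starts. The position holding most sites was -2, the nucleotide before the last one upstream of the transcript, in all 6 lists. It held 805 WT, 556 ΔZF1 and 337 noXL sites in ESCs, and 470 WT, 119 ΔZF1 and 145 noXL sites in NPCs. These counts were 3.01 to 4.38 times the mean per nucleotide of the first 20 nt of the transcripts, and the highest of the 6 factors belonged to ESC noXL. Between 21.4% and 29.1% of the sites at -2 were uridines. These sites lie upstream of that transcript and count among the 97305 only where the 5′ UTR of another transcript covers them. A called site is by definition the nucleotide just upstream of the first base of a read, so a cDNA that ends at the first nucleotide of an RNA is recorded at -1; what part such cDNAs have in the sites near transcription starts was not tested.

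**Figure D2:**
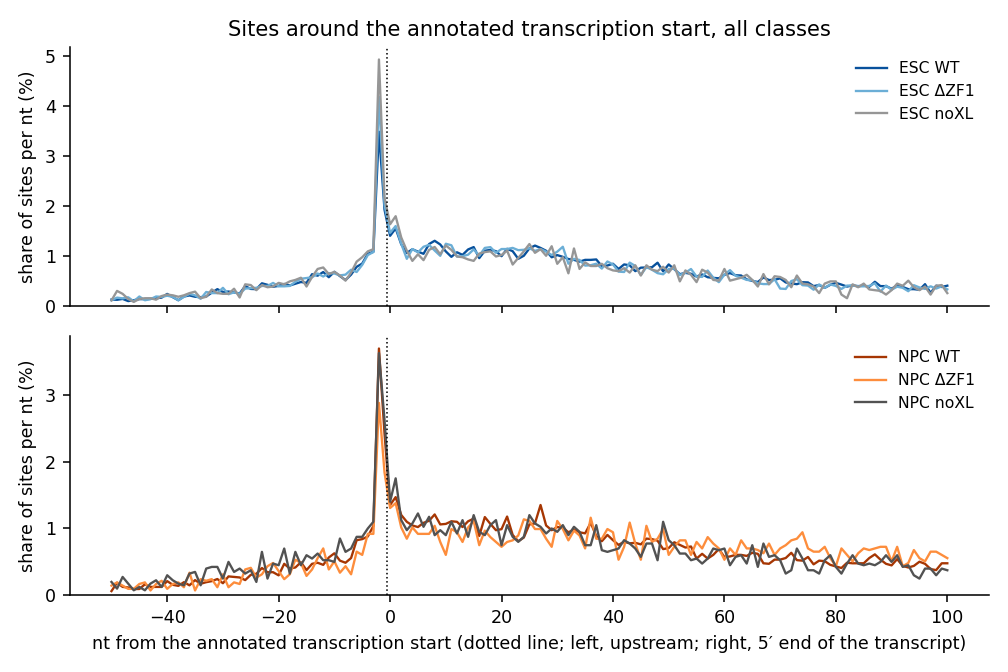
Share of the sites within the window (%) at each nucleotide around the annotated transcription start (dotted line), for the 3 ESC lists (top) and the 3 NPC lists (bottom). All 6 curves peak at -2, with and without UV, at 3.01 to 4.38 times the mean of the first 20 nt.

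At the other end of the 5′ UTR, sites were near or below an even spread. Within 50 nt of the start codon lay 29.4%, 27.7% and 27.1% of the sites in ESC WT, ESC ΔZF1 and ESC noXL and 29.4%, 26.9% and 25.8% in NPC WT, NPC ΔZF1 and NPC noXL, which was 0.897 to 1.07 times an even spread. The last 10 nt before the start codon were thinner still, at 0.611 to 0.770 times an even spread in 5 lists and 0.980 in NPC ΔZF1. Sites on uridines, set against an even spread over uridines, stood at 1.05, 1.08 and 1.24 times that spread in these 10 nt in ESC WT, NPC WT and NPC ΔZF1 and at 0.658 to 0.824 times in the other lists, and within 50 nt they stood at 1.09, 1.15 and 1.18 times and 0.866 to 0.977 times. WT exceeded noXL within 50 nt of the start codon by 2.28 points in ESCs (1.27 to 3.28) and 3.59 points in NPCs (2.32 to 4.84), and ΔZF1 by 1.68 points (0.87 to 2.47) and 2.503 points (1.35 to 3.64). With a window of 20 nt the intervals of both differences from ΔZF1 and of that from noXL in ESCs included 0. The last also did so (0.85, -0.20 to 1.88) once sites near a noXL site were taken out of the WT list alone. The AUG triplet was also sparsely covered. An AUG inside the 5′ UTR held 1.25% to 1.56% of sites, compared with 2.71% of all 5′ UTR nucleotides. A alone was under 6.29% to 12.6% of sites, against 21.3% of these nucleotides. AUG cover was not set against a background matched for base.

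The third comparison asked which base lay under the sites. Crosslinking with short-wave UV is known to favour uridine. In ESCs uridine was under 35.3% of WT 5′ UTR sites (34.8 to 35.8), 30.9% of ΔZF1 sites (30.3 to 31.6) and 23.0% of noXL sites (22.1 to 23.8). In NPCs it was under 41.3% of WT sites (40.6 to 42), 38.9% of ΔZF1 sites (37.9 to 40.0) and 23.3% of noXL sites (22.3 to 24.4). Of all nucleotides that the rule allows, 21.6% were uridines. Both noXL lists lay within 1.08 times this background and the 4 UV lists at 1.43 to 1.92 times. Uridine was also compared at the same distance from the start within the 5′ UTRs that held the sites. There ESC noXL stood at 1.15 to 1.34 times, NPC noXL at 1.18 to 1.36 times and the 4 UV lists at 1.18 to 2.69 times. In coding exons, where 22.4% of nucleotides were uridines, uridine took 59.98% of WT, 47.8% of ΔZF1 and 23.9% of noXL sites in ESCs. The uridine excess of WT over noXL in ESCs was therefore 12.4 points in 5′ UTRs (11.4 to 13.3), 36.0 points in coding exons (35.6 to 36.5) and 39.7 points in 3′ UTRs (39.0 to 40.5), and in NPCs 18 points (16.7 to 19.2), 43.6 points and 43.7 points. WT exceeded ΔZF1 by 4.41 points in ESCs (3.58 to 5.24) and 2.41 points in NPCs (1.15 to 3.66), compared with 12.2 and 9.56 points in coding exons.

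**Figure D3:**
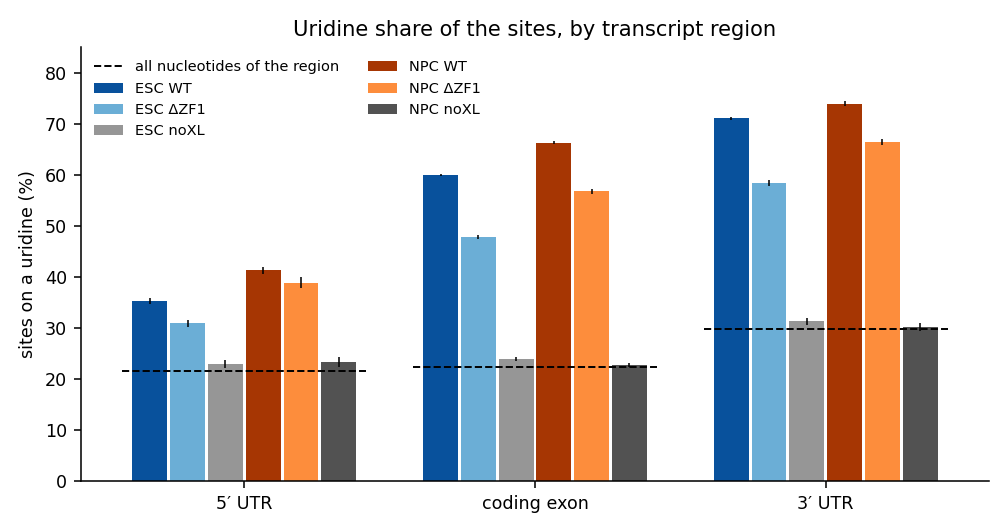
Share of sites on a uridine (%) in 5′ UTRs, coding exons and 3′ UTRs for the 6 lists, with 95% intervals for counting error. Dashed lines give the uridine share of all nucleotides of the region (21.6%, 22.4% and 29.8%); the UV lists rise above them in every region, least in 5′ UTRs, and the noXL lists stay near them.

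The uridine share of the UV lists depended on the distance from the transcription start. In ESC WT it was 24.8% at 1 to 5 nt (22.9 to 26.8), 27.1% at 21 to 50 nt and 47.2% beyond 200 nt (46.1 to 48.3), although the same 5′ UTRs held 20.7% and 20.5% uridine in the first and last of these classes. NPC WT rose likewise from 27.3% (24.6 to 30.2) to 53.9% (52.5 to 55.2) and NPC ΔZF1 from 25.5% (20.8 to 31.0) to 47.1% (45.1 to 49), with ESC ΔZF1 going from 23.9% to 39.1%. The lists without UV stayed between 20.6% and 24.9% at every distance. At 1 to 5 nt the interval of each UV list overlapped that of the noXL list of the same cell type. Even beyond 200 nt the share was below that of coding exons in each UV list.

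**Figure D4:**
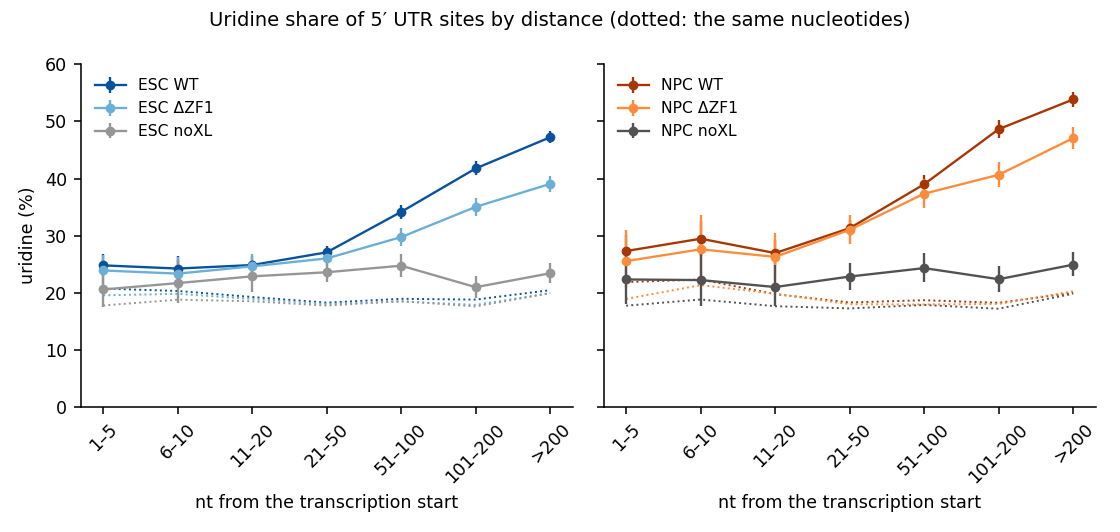
Share of 5′ UTR sites on a uridine (%) by distance from the transcription start in nt, for the ESC lists (left) and the NPC lists (right), with 95% intervals for counting error. Dotted lines give the uridine share of the same nucleotides in the 5′ UTRs of each list; the UV lists climb, to 53.9% in NPC WT, and the noXL lists remain between 20.6% and 24.9%.

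By base, the sites on uridines showed the widest gap between UV and control. The ratio of WT to noXL was 5.29 for uridine sites in ESCs (5.05 to 5.53) and 2.88 for the other bases together (2.81 to 2.96), and in NPCs 5.79 (5.48 to 6.13) and 2.504 (2.42 to 2.59). NPC ΔZF1 had 2.21 times as many uridine sites as NPC noXL (2.08 to 2.35) and 1.06 times as many sites on other bases (1.01 to 1.10). Its sites on A and C were no more numerous than without UV, at 0.950 (0.856 to 1.05) and 0.944 times (0.889 to 1.00). The ratio of WT to ΔZF1 in ESCs was 2.04 for uridine sites (1.97 to 2.10) and 1.54, 1.67 and 1.70 for A, C and G. In NPCs it was 2.62 for uridine (2.52 to 2.73) and 2.65 for C (2.52 to 2.79), with 1.81 for A and 2.29 for G, so uridine stood above every other base in ESCs only.

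Sequence around the sites was read in the same lists. A run of at least 4 uridines covered 4.53% of WT and 2.76% of ΔZF1 sites in ESCs and 5.75% of WT and 4.78% of ΔZF1 sites in NPCs, against 1.70% of all 5′ UTR nucleotides and 1.23% in both noXL lists. A run of at least 5 pyrimidines covered 20.6% of ESC WT and 22.8% of NPC WT sites, but 13.7% and 13.8% of those of the controls, where all 5′ UTR nucleotides gave 14.6%. Runs of at least 3 guanines covered 7.60% of sites in ESC WT (7.32 to 7.89) and 8.49% in ESC noXL (7.96 to 9.06), beside 6.52% of all nucleotides, so in ESCs they were more frequent without UV. In NPCs they covered 6.74% of WT (6.40 to 7.09), 8.33% of ΔZF1 (7.75 to 8.94) and 7.71% of noXL sites (7.07 to 8.40), and so did not separate the UV lists from the control. A was rare under the sites in every list, from 6.29% in NPC WT to 12.6% in ESC noXL, against 21.3% of all 5′ UTR nucleotides. The nucleotide following the next one after the site was seldom a uridine, at 13.8% in ESC WT and 11.9% in ESC noXL, and was G in 38.4% and 38.3%. In NPCs it was a uridine in 15.7% of WT, 18.99% of ΔZF1 and 14.4% of noXL sites and G in 37.2%, 34.0% and 38.8%, so NPC ΔZF1 stood closest to the 21.6% uridine of all 5′ UTR nucleotides.

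The fourth comparison used the score that PureCLIP gave each site, ranked within its own list, since the lists were scored separately. 5′ UTR sites stood high in every ranking. The top 10% of the list held 25.6% of ESC WT 5′ UTR sites (25.1 to 26.1), 26.2% of ESC ΔZF1 sites (25.5 to 26.8) and 23.4% of ESC noXL sites (22.6 to 24.2). The NPC values were 20.5% of WT (20.0 to 21.1), 12.1% of ΔZF1 (11.4 to 12.8) and 16.1% of noXL sites (15.2 to 17.0). For coding exons these shares were 6.40% to 10.2%, and for 3′ UTRs 5.46% to 8.20%. NPC ΔZF1 had the smallest excess at the top 10%, and the difference of WT from ΔZF1 was 8.43 points in NPCs (7.52 to 9.32) and -0.57 points in ESCs (-1.35 to 0.21). The top 1% of the list held 3.62% of WT, 3.18% of ΔZF1 and 4.41% of noXL 5′ UTR sites in ESCs, and 2.71%, 2.29% and 1.959% in NPCs, where noXL was lowest. At the top 1% WT exceeded ΔZF1 by 0.44 points in ESCs (0.11 to 0.75) and 0.43 points in NPCs (0.02 to 0.81). High scores clustered near the transcription start, with 35.1% of ESC WT sites in the top 10% at 1 to 5 nt and 17.3% beyond 200 nt.

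**Figure D5:**
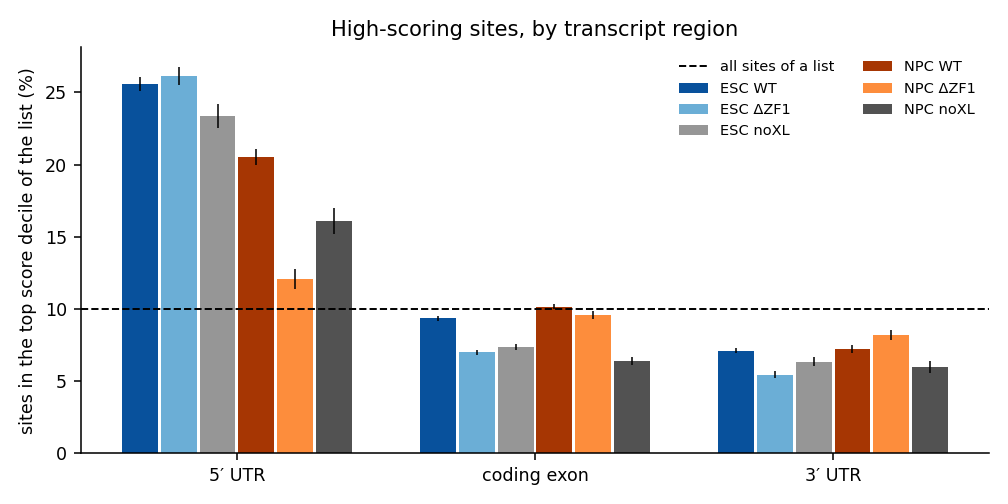
Share of sites (%) whose score lay in the top 10% of their own list, by transcript region, with 95% intervals for counting error; the dashed line is the share over all sites of a list (10%). 5′ UTR sites exceed it in all 6 lists, from 12.1% in NPC ΔZF1 to 26.2% in ESC ΔZF1, also without UV.

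Many 5′ UTR sites had a counterpart in the list without UV. In ESCs a site called without UV lay within 5 nt of 25.8% of WT sites (25.4 to 26.3) and 28.4% of ΔZF1 sites. In NPCs this held for 16.5% of WT and 12.2% of ΔZF1 sites (11.5 to 13 for the last). The sites without UV come from the WT rescue line, also where ΔZF1 is compared. For coding exon sites the shares were 7.79%, 7.55%, 5.01% and 4.44%. The ESC WT sites near a noXL site were less often uridines (28.1% against 37.8% of the others), lay more often within 50 nt of the transcription start (55.3% against 35.3%) and were more often in the top 10% of scores (48.7% against 17.5%). The same 3 contrasts held in the other 3 UV lists.

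Agreement between the rescue proteins was read from sites within 5 nt of each other. Of ESC ΔZF1 5′ UTR sites, 55.3% had an ESC WT site nearby (54.6 to 56.0), and 41.3% of WT sites had a ΔZF1 site nearby. In NPCs the shares were 30.3% (29.3 to 31.3) and 17.4%. Sites in coding exons were shared less, with 26.6% of ESC ΔZF1 and 19.2% of NPC ΔZF1 sites near a WT site. Between the cell types, 52.5% of NPC WT 5′ UTR sites lay near an ESC WT site. Such shares can grow with the length of the other list, and the lists differ in length.

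A small core of nucleotides recurred. The same nucleotide was called in all 6 lists at 298 positions in 276 genes, with a median of 43.5 nt from the transcription start and with uridine at 25.5% and G at 37.9% of them. Another 179 positions in 172 genes were called in all 4 UV lists and in neither control, and 32.4% of these were uridines. By contrast, 59900 of the 73929 positions appeared in 1 list only, with a median of 108 nt from the start. Positions of all 6 lists were thus nearer to the start and less often uridines than those seen once, of which 34.7% were uridines.

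By gene, the 5′ UTR sites were widely spread. Genes with at least 1 site numbered 7438, 6946 and 5767 in ESC WT, ESC ΔZF1 and ESC noXL and 6888, 4394 and 4084 in NPC WT, NPC ΔZF1 and NPC noXL, with a mean of 4.55, 2.74, 1.71, 2.93, 1.86 and 1.51 sites each in that order. The 10 genes with most sites held between 0.821% and 1.45% of a list, so no small set of genes made up any list. The gene with most sites in ESC WT was 2410002F23Rik, on chromosome 7 from 44246722 to 44252319, with 38, 25 and 14 sites in ESC WT, ESC ΔZF1 and ESC noXL and 26, 18 and 10 in the NPC lists. Its annotated transcripts cover 3586 nt of 5′ UTR, and its highest-scored site lies in the snoRNA gene Gm23991 on the same strand, so that reads of the 2 genes cannot be told apart there. Over all lists, 0.180% to 0.257% of 5′ UTR sites lay in such a small RNA gene.

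Chtop, Hnrnpc and Hnrnph2 were among the 5 genes with most ESC WT sites. Chtop, a chromatin and mRNA export factor, held 35, 11 and 5 sites in ESC WT, ESC ΔZF1 and ESC noXL and 20, 10 and 7 in NPC WT, NPC ΔZF1 and NPC noXL. Hnrnpc, which encodes a nuclear protein that binds uridine tracts, held 26, 13 and 7 and 8, 7 and 2 in the same order. Hnrnph2, which encodes a binder of G tracts, held 26, 20 and 5 in ESCs and 5, 10 and 5 in NPCs. These genes were chosen for their many sites in ESC WT, so their order among the ESC lists is a description only. Among the NPC lists ΔZF1 had the most sites in Hnrnph2.

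For each pair of lists, genes with at least 20 5′ UTR sites in both together were compared by a log2 ratio scaled to the 5′ UTR sites of the lists, with a pseudocount of 1 and limits of 1 and -1. For ESC ΔZF1 against ESC WT, 4 of 148 genes were above the limit and 5 below. Over all sites in gene bodies, 6.84% of 6518 genes were above and 5.45% below, so both shares of 5′ UTR calls lie under that background. In NPCs 2 of 19 genes were above and 0 below, beside 5.76% and 7.36% of 5274 genes. For NPC WT against ESC WT, 5 of 163 genes were above and 7 below, beside 11.5% and 10.4% of 6730. Without scaling to the lists the same limits gave 0 above and 63 below in ESCs, 0 and 10 in NPCs and 1 and 40 between the cell types, so the directions rest on the scaling. With counts this small, ratios of single genes have wide intervals.

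The genes above the limit for ESC ΔZF1 against WT were Ep300, Epb41l2, Myo10 and Rhno1, and those below included BC005537, Gpbp1l1, Usp26 and Zfp57; in NPCs Brd2 and Usp48 were above. Those among them that no naming rule gave (Ep300, Myo10, BC005537, Gpbp1l1 and Usp26), like the genes past the limits of the next comparisons, were picked after their values were seen. Zfp57, which encodes the zinc finger protein that guards imprinted methylation, went from 25 WT sites to 5 ΔZF1 sites in ESCs, with 4 in noXL, a log2 ratio of -1.28 (-2.83 to -0.15). Rhno1, a DNA damage checkpoint gene, went the other way with 24 and 33 sites and 4 without UV, a log2 ratio of 1.28 (0.54 to 2.04). Usp48, a deubiquitinase gene, fell on opposite sides in the 2 cell types, with 30 WT and 8 ΔZF1 sites in ESCs, but 14 and 19 in NPCs. Its log2 ratios were -0.95 in ESCs (-2.17 to 0.02) and 1.72 in NPCs (0.77 to 2.72), and its noXL lists held 8 and 9 sites. Zfp57, Rhno1 and Usp48 were named for extreme ratios or many sites in these same lists. Their intervals do not allow for that choice.

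Usp26, an X-linked deubiquitinase gene, stood apart. Its 5′ UTR held 22 WT and 5 noXL sites in ESCs and 8 WT and 3 noXL sites in NPCs, and 0 in both ΔZF1 lists. Over its whole body it held 77, 25, 28 and 10 sites in those 4 lists and again 0 in ESC ΔZF1 and in NPC ΔZF1. All 4 lists with sites come from the WT rescue line, including those without UV, and the absence therefore follows the line as well as the rescue protein. Nrp2, a receptor of axon guidance, had 11 sites in NPC ΔZF1, 0 in NPC WT and 0 in NPC noXL. It had 0, 1 and 2 in ESC WT, ESC ΔZF1 and ESC noXL. Nrp2 was named for its many NPC ΔZF1 sites, so this contrast describes a chosen gene.

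Between the cell types, Macf1, which encodes a protein linking microtubules and actin, went from 4 ESC WT sites to 17 NPC WT sites, a log2 ratio of 2.59 (1.33 to 4.34), and Hnrnph2 from 26 to 5, a ratio of -1.42 (-2.97 to -0.30). The other genes above the limit in NPC WT were Araf, Epb41l2, Magi1 and Ubtf, and the other genes below it Gjc1, L1td1, Man1a2, Smad7, Tgif1 and Ube4b. Smad7 and Tgif1, both of which restrain TGF-β signalling, held 20 and 21 ESC WT sites but 2 and 4 NPC WT sites. Macf1 was named for its many NPC WT sites, and Hnrnph2 for its many ESC WT sites and its ratio. The intervals of both do not allow for that choice.

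The WT lists were compared with their controls in the same way. For ESC WT against ESC noXL, 1 of 79 genes was above the limit (Ccne1, a cyclin gene, with 19 sites and 1 without UV) and 3 below (Araf, Fasn and Ptprf), beside 8.12% and 6.60% of 6208 genes over all sites. For NPC WT against NPC noXL, 0 of 14 were above and 3 below (Gprasp1, Rhno1 and Usp48), beside 10.5% and 6.51% of 4765. With ratios scaled to the median of the 14 genes, 0 were below. Without scaling, 74 of the 79 genes were above and 0 below in ESCs, and 9 of the 14 above and 0 below in NPCs. Podxl and Grb10, whose RNAs the study truncated, had few 5′ UTR sites. Podxl had 5, 0 and 1 in ESC WT, ESC ΔZF1 and ESC noXL and 2, 0 and 0 in NPC WT, NPC ΔZF1 and NPC noXL, out of 46 sites over its whole body in NPC WT. Grb10 had 0 in all ESC lists and 5, 5 and 3 in the NPC lists, out of 279, 132 and 143. Ctcf itself had 1, 4 and 2 and 1, 2 and 3.

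Sites of ribosomal protein genes lay in the top 10% of scores more often than 5′ UTR sites as a whole in each list. Of 86 cytosolic ribosomal protein genes, 84 had a 5′ UTR site, with 563, 278 and 150 sites in ESC WT, ESC ΔZF1 and ESC noXL and 387, 94 and 86 in NPC WT, NPC ΔZF1 and NPC noXL. Their share in the top 10% of scores was 74.8%, 77.3% and 72.0% in the ESC lists and 76.0%, 48.9% and 69.8% in the NPC lists, where all 5′ UTR sites gave 25.6%, 26.2%, 23.4%, 20.5%, 12.1% and 16.1%. The ratio of WT to ΔZF1 was 2.03 in ESCs and 4.12 in NPCs, beside 1.78 and 2.47 over all 5′ UTR sites. Of the 100 highest-scored 5′ UTR sites, ribosomal protein genes held 75 (WT), 61 (ΔZF1) and 42 (noXL) in ESCs and 55, 24 and 23 in NPCs. The site of Rps20 shown above scored 708, 486 and 404 in the ESC lists and 505, 310 and 131 in the NPC lists, so it was called with and without UV in both cell types.

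A run of at least 5 pyrimidines began at the site or up to 3 nt after it for 17.1% of the WT (14.2 to 20.4), 20.5% of the ΔZF1 and 25.3% of the noXL (19.05 to 32.8) ribosomal protein sites in ESCs, and for 14.2% (11.1 to 18.04), 22.3% and 25.6% (17.5 to 35.7) in NPCs. For the other genes the shares were 6.95% to 8.91%. This feature was defined after the windows printed above had been seen. Its share was higher without UV than in WT in both cell types, with intervals that overlap.

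Other genes of the translation machinery and of nucleosomes were counted in the same way. Translation initiation and elongation factors had a site in 59 of 68 genes, with 309, 160 and 77 sites in ESC WT, ESC ΔZF1 and ESC noXL and 202, 56 and 50 in the NPC lists, a WT to ΔZF1 ratio of 1.93 and 3.61. Eif5, which promotes GTP hydrolysis at the start codon, had 18, 7 and 6 sites in the ESC lists and 16, 7 and 6 in the NPC lists. Replication-dependent histone genes had a site in 29 of 56 genes, with 73, 41 and 28 sites in the ESC lists and 60, 8 and 13 in the NPC lists. NPC ΔZF1 thus had fewer histone 5′ UTR sites than the control without UV, and the top 10% of scores held 70.0% to 89.3% of histone sites over the 6 lists.

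Genes that process RNA and genes whose 5′ UTRs have a known regulatory function formed further lists. Hnrnp genes had a site in 19 of 20, with 139, 81 and 43 sites in the ESC lists, 62, 32 and 20 in the NPC lists, and WT to ΔZF1 ratios of 1.72 and 1.94. Srsf genes, which encode splicing factors, had a site in 9 of 11, with 35, 21 and 9 and 25, 11 and 8. Genes with known control through the 5′ UTR, such as Xiap, Hif1a and Eif4g2, had a site in 23 of 24, with 122, 71 and 42 sites and 83, 31 and 24. Uridines made up 50.8% of their sites in WT, 40.8% in ΔZF1 (30.2 to 52.5) and 21.4% in noXL (11.7 to 35.9) in ESCs, and 60.2%, 45.2% (29.2 to 62.2) and 25.0% (12 to 44.9) in NPCs, so the intervals of ΔZF1 and noXL overlap. Over all 5′ UTR sites WT and noXL gave 35.3% and 23.0% in ESCs, and the translation factor list gave 48.2% and 26.0%, so the contrast was not particular to this list.

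The cohesin and loop genes (Ctcf, Smc1a, Smc3, Rad21, Stag1, Stag2, Nipbl, Wapl, Pds5a, Pds5b and Mau2) all had a site, 62, 31 and 21 in ESCs and 51, 17 and 16 in NPCs, Stag1 holding 12 of the ESC WT sites and 13 of the NPC WT sites. Stem cell genes had a site in 13 of 14, with 63, 33 and 15 in ESCs and 24, 12 and 7 in NPCs. Tbx3, a transcription factor of naive stem cells, had 9, 3 and 2 sites in ESCs and 0 in the 3 NPC lists, and Pou5f1 had 11, 6 and 3 in ESCs and 3, 2 and 0 in NPCs. Klf5, another such factor, had 8, 0 and 0 and then 1, 3 and 0, and Zfp42, a stem cell marker, had 6, 6 and 3 and then 5, 4 and 2. Neural and differentiation genes had a site in 5 of 11, with 10, 6 and 2 and 9, 5 and 4. The ESC lists held more 5′ UTR sites than the NPC lists over all genes too, 33873 against 20202 for WT, and the neural list was too short to compare.

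The highest scores of some other genes are given as values only, since the lists were scored separately. The highest score of any 5′ UTR site, 708, was the same in the 4 UV lists. It was reached by 8 WT and 3 ΔZF1 sites in ESCs and by 2 WT sites and 1 ΔZF1 site in NPCs. Such a shared top value cannot rank the sites that reach it, nor measure how far they stand above others. Dppa5a, a stem cell gene, had highest scores of 708, 646 and 496 in ESC WT, ESC ΔZF1 and ESC noXL, and 62.5 in NPC WT and 27.7 in NPC noXL, with no site in NPC ΔZF1. Peg10, an imprinted gene derived from a retrotransposon, had 31.2, 21.9 and 35.9 in ESCs and 530, 266 and 260 in NPCs. Stag3, a meiotic cohesin gene, had its highest score, 430, in NPC noXL and no site in NPC WT or NPC ΔZF1, against 33.9, 9.0 and 26.5 in ESCs.

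Ccnb1ip1 had 11, 7 and 1 sites in ESC WT, ESC ΔZF1 and ESC noXL and 6, 2 and 0 in NPC WT, NPC ΔZF1 and NPC noXL, and its highest score was 708 in each UV list but 8.0 in ESC noXL. Of its sites, 8, 3, 0, 6, 2 and 0 lay in Rpph1, the RNA subunit of ribonuclease P, which occupies chromosome 14 from 50807449 to 50807767 on the same strand. On that stretch a non-coding RNA and a messenger RNA cannot be told apart. The genes of this and the preceding paragraph were chosen after their scores were seen.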

How the data were processed

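Per the study's methods, the authors used Flexbar for demultiplexing and trimming, STAR for alignment (mm10), UMI-tools for removing PCR duplicates and PureCLIP for calling sites on the 23 libraries merged by group. Tool versions are not given in the sources used here. The deposited files list single-nucleotide sites with a PureCLIP score each, without counts, so depth per library is unknown. Sites were assigned here to GENCODE M21 transcripts (mm10) on their own strand, and sequences were read from GRCm38, with Python 3.11.15, numpy 2.4.6, pandas 2.3.3, scipy 1.17.1 and matplotlib 3.10.9. Shares have Wilson intervals at 95%, differences Newcombe intervals, and ratios intervals from the binomial split of both counts. Scripts were tested on simulated data. Genes were named by rule (5 with most sites per list, the 3 highest and 3 lowest ratios among genes with at least 30 sites, Podxl, Grb10, Ctcf and up to 4 per gene list), exceptions being marked. The members and lists were chosen with earlier results of these data known. Alternatives were a score minimum of 3.02 (the median over all lists), UV sites away from noXL sites, uridine sites, other windows, tolerances, gene minimums, pseudocounts and scalings; barring coding exons and 3′ UTRs of every transcript type was added after seeing the data.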

Additional observations from a re-analysis of the deposited data

Results flagged for a closer look

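The difference of WT from ΔZF1 had opposite signs in ESCs and NPCs for 3 measures of the 5′ UTR sites; with 1 merged list per group, the difference between the cell types was not tested. The 5′ UTR share of all sites differed by -0.70 points in ESCs and 3.28 points in NPCs. The share of 5′ UTR sites within 50 nt of the transcription start differed by -1.10 points in ESCs and 9.38 points in NPCs. The ESC interval included 0 without UV sites near a noXL site (-0.48), with the smallest distance over transcripts (-0.85) and with a 20 nt window (-0.65). For uridine sites the ESC difference was -4.03 points (-5.50 to -2.58). The share in the top 10% of scores differed by -0.57 points in ESCs, with an interval that includes 0, and by 8.43 points in NPCs. For uridine sites it differed by -2.30 points in ESCs and 6.81 points in NPCs. For the top 1% the signs were the same, at 0.44 points in ESCs and 0.43 points in NPCs.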

How the results depend on the processing

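Among the values recomputed under an alternative, 135 moved by less than their counting interval (for gene counts, by at most 1.5 times), 91 moved further and 2 whose main interval excluded 0 changed sign, and the cause was not tested. Removing sites near noXL takes them from the UV lists alone, so it moves differences to noXL by its own construction. Values whose main interval included 0 also changed sign: the difference within 50 nt of the transcription start to noXL above the score minimum (values below), with the smallest distance over transcripts (0.53 points in ESCs, 0.15 in NPCs) and with a 100 nt window (0.04 in NPCs), and the top-score difference of ESC WT to ΔZF1 at the top 1%. Values follow the order ESC WT to ΔZF1, NPC WT to ΔZF1, ESC WT to noXL, NPC WT to noXL unless pairs are named. Ratios of 5′ UTR sites were 1.83, 2.36, 3.04 and 2.94 above the score minimum, 1.85, 2.35, 2.55 and 2.73 without UV sites near a noXL site, and 2.04, 2.62, 5.29 and 5.79 for uridine sites. The uridine difference became 10.97 points (ESC WT to noXL) above the score minimum, and without sites near noXL 5.49 (ESC WT to ΔZF1), 14.9 (ESC WT to noXL) and 19.9 points (NPC WT to noXL).

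The difference within 50 nt of the transcription start was -4.03, 5.96, -10.7 and -9.25 points for uridine sites, 12.2, 1.25 and 1.03 points above the score minimum (the last 3 pairs), -5.43 and -3.90 points without sites near noXL (the noXL pairs) and 5.14 points with a 20 nt window (NPC WT to ΔZF1). For the start codon it was 0.56, 0.29, 0.61 and 1.47 points with a 20 nt window, 5.42 with a 100 nt window (NPC WT to noXL), 3.08, 4.26 and 6.44 for uridine sites (ESC WT to ΔZF1, ESC and NPC WT to noXL), 2.60 and 3.65 above the score minimum (the ESC pairs) and 0.85, with an interval that includes 0, without sites near noXL (ESC WT to noXL). The top-score difference was 0.44, 0.43, -0.79 and 0.75 points for the top 1% and -2.30, 6.81, -4.41 and 1.42 points for uridine sites, so that of ESC WT to noXL, 2.20 points in the top 10%, changed sign in both.

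The share of ΔZF1 sites near a WT site was 37.6% (ESC) and 16.3% (NPC) at the same nucleotide, 71.5% and 47.1% within 20 nt, 45.6% and 25.1% for uridine sites and 58.5% and 26.1% above the score minimum. The 10 genes with most sites held 1.55%, 1.75%, 1.55%, 1.32%, 2.20% and 2.78% of uridine sites (ESC WT, ΔZF1, noXL, then NPC) and 0.815% in ESC ΔZF1 above the score minimum.

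Counts of genes past a limit moved most. With a minimum of 10 sites they were 102 higher and 72 lower (ESC ΔZF1 to WT), 70 and 16 (NPC ΔZF1 to WT), 98 and 80 (NPC to ESC WT), 64 and 86 (ESC WT to noXL) and 12 and 49 (NPC WT to noXL). With a minimum of 50 they were 1 and 0, 0 and 0, and 0 and 0 for the first, the third and the fourth of these pairs, and no gene was left for the others. Without scaling they were 0 and 63, 0 and 10, 1 and 40, 74 and 0, and 9 and 0. For uridine sites they were 1 higher (ESC ΔZF1), 1 higher (NPC ΔZF1), 0 higher and 1 lower (NPC to ESC WT) and 0 lower (ESC WT to noXL). A pseudocount of 0.5 gave 8 lower in ESC ΔZF1, and median scaling gave 0 lower for NPC WT to noXL.

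No paired analysis was possible because PureCLIP was run on merged libraries, which also bars leaving a library out. Depth per library is unknown.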
